A study of Mus musculus with 22 samples.

Results

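The alternative exons of 10 genes for splicing regulators were followed in mouse embryonic stem (ES) cells. The genes are 7 SR protein genes (Srsf1, Srsf2, Srsf3, Srsf6, Srsf7, Srsf9 and Srsf11), Tra2a, the kinase gene Clk4 and Luc7l. Every skipped-exon event whose span, from upstream exon to downstream exon, lay inside one of these genes on the mm10 build was taken, which gave 26 events on 21 distinct exons of all 10 genes, out of 10873 events on 10148 exons in 5473 genes. All 26 were listed in the untransfected libraries and 25 in each knock-down library, where the 78-nucleotide Clk4 exon was missing.

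RNA had been sequenced from 14 samples in 7 groups of 2 biological replicates. The knock-down groups were TKO cells given siRNA against HP1alpha, HP1beta and HP1gamma at 80, 80 and 120 nM (TKO triple KD), WT cells given the same 3 siRNAs at 60 nM each (WT triple KD), and WT cells given 1 of the siRNAs at 90 nM (HP1alpha KD, HP1beta KD, HP1gamma KD), all harvested 48 h after lipofection. The untransfected groups were TKO cells, which lack the DNA methyltransferases Dnmt1, Dnmt3a and Dnmt3b, and WT cells of the R1 line; the labels name no group given a control siRNA. All cells were kept in serum medium with leukaemia inhibitory factor on gelatin, without feeder cells. The TKO line and the R1 line came from different sources, so differences between the lines other than the missing methyltransferases cannot be told apart from their loss. TKO and WT libraries were single-end reads of 50 bases and knock-down libraries were paired reads of 101 bases, so the knock-down, the transfection and the sequencing cannot be told apart wherever a knock-down is set against untransfected cells. The 2 replicates of a group share 1 deposited summary, so each group is 1 pooled library, no spread between replicates can be given, and every test below compares libraries rather than conditions.

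SR proteins are RNA-binding proteins with an arginine- and serine-rich tail that help the spliceosome choose exons, and CLK kinases phosphorylate that tail. Many SR genes carry an alternative exon whose inclusion brings in an early stop codon, a so-called poison exon, and the resulting transcript is a target of nonsense-mediated decay. SR proteins often favour the poison exon of their own gene or of a related one, which makes these exons a known point of feedback in the family. HP1 proteins bind methylated histone H3 in chromatin.

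The libraries differed in depth. The reads over all listed events came to 25200437 in TKO and 25941844 in WT, against 4677236 to 9750348 in the knock-downs. On the events of the 10 genes, 75.6% to 77.9% of reads in knock-down libraries fitted neither isoform, against 54.6% in TKO and 51.5% in WT. Over all listed events these shares lay closer, at 53.6% to 56.9% in knock-downs against 49.1% in TKO and 50.5% in WT. Of 13 ES cell markers 6 had a listed event, Zfp42, Sall4, Tdh, Klf4, Tbx3 and Tcl1, and these were listed in every library, with a summed level of 3552 to 5055 RPM in knock-downs against 3568 RPM in TKO and 4370 RPM in WT. RPM here are reads that fit an isoform of the most deeply read event of a gene, scaled to the library total of such reads. Zfp42 differed most of the 6, at 5.11 to 10.0 RPM in knock-downs against 668 RPM in TKO and 442 RPM in WT. Pou5f1, Sox2 and Nanog had no listed event and could not be checked. Of 10 markers of differentiated cells 3 had one: Fn1 in every library, Sox17 in the TKO triple KD and TKO alone, and Pax6 in those and, at 9.03 RPM, in WT. Their summed level was 356 to 446 RPM in knock-downs against 577 RPM in TKO and 450 RPM in WT, and the part of these differences in the results was not tested. In the libraries where an HP1 gene was targeted, its event reads were 0.324 to 0.710 times those in the single knock-downs of the other HP1 genes.

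The exons of the 10 genes were mostly skipped and lay between introns of lower median length than over the series, and exons of 250 nucleotides or more took a larger share of them. Their median length was 104 nucleotides, against 106 over all exons of the series. Of the 21 exons 8 (38.1%) had a length that is a multiple of 3, so that inclusion by itself keeps the reading frame, against 46.6% of all exons. The exons of 250 nucleotides or more had lengths of 306 in Tra2a, 456 in Srsf3, 460 in Srsf7 and 268 in Srsf6. These 4 exons were 19.0% of the 21, against 6.68% of all exons. The flanking introns had medians of 829 nucleotides upstream and 577 downstream, against 1939.5 and 1904 over all exons. In WT cells 14 of the 21 exons (66.7%) had an inclusion level below 0.5, against 42.0% of all exons. Stop codons inside the exons were not examined, so none is called a poison exon here on the basis of sequence.

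**Figure D1:**
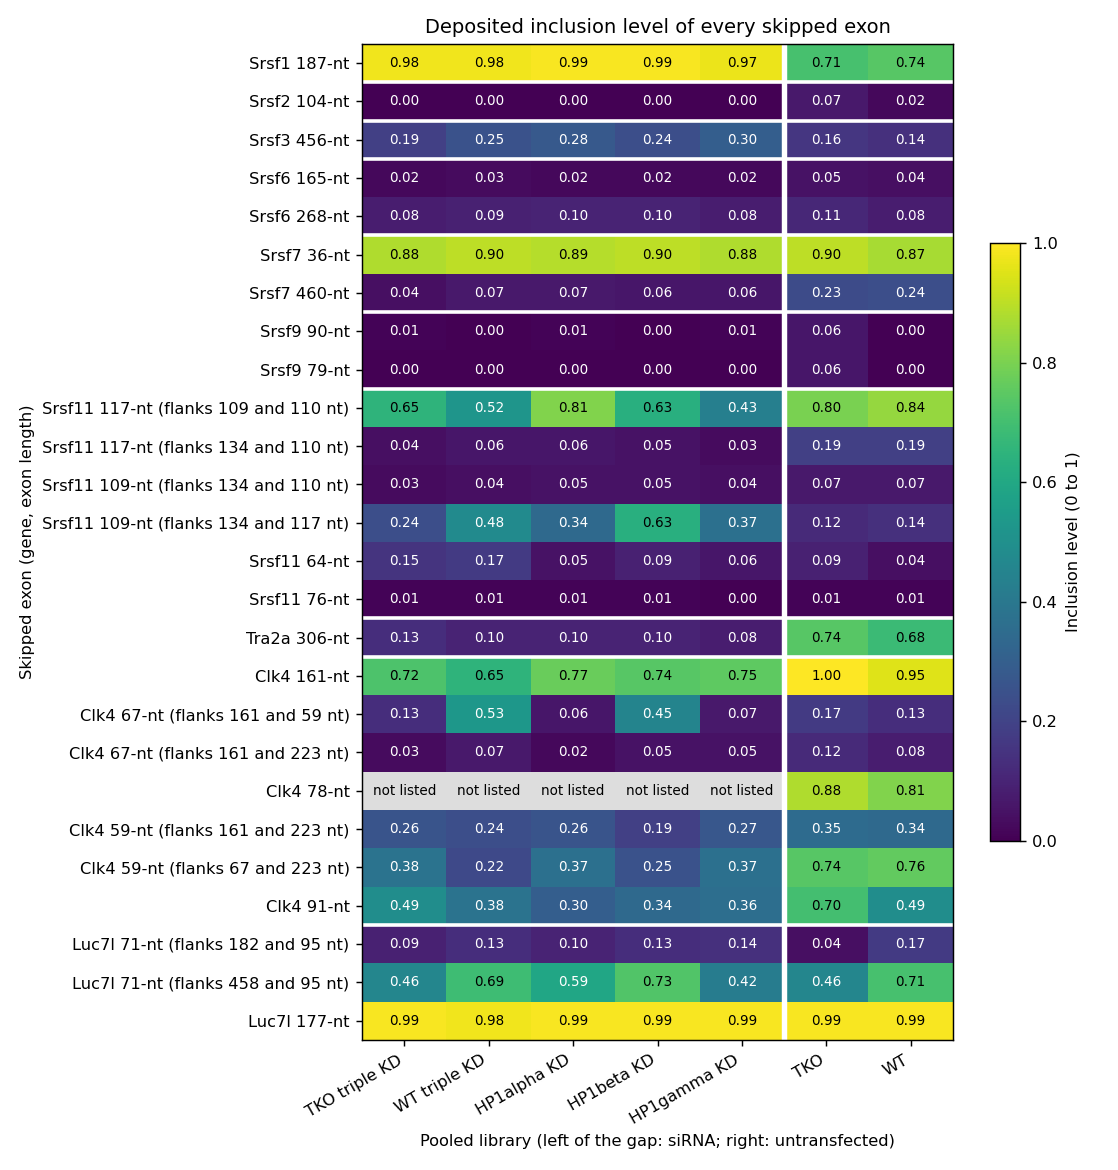
Deposited inclusion level, from 0 (always skipped) to 1 (always included), of the 26 skipped-exon events (rows) in the 7 pooled libraries (columns). Knock-down libraries lie left of the white gap and untransfected libraries right of it; the Tra2a row runs from 0.08 to 0.13 in the knock-downs against 0.74 in TKO and 0.68 in WT.

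The first comparison asked how the exons differ in cells without DNA methyltransferases. Low-level exons of 3 SR genes, Srsf2, Srsf6 and Srsf9, and exons of Clk4 had a larger share of inclusion reads in TKO than in WT, and an exon of Luc7l had a smaller one. An event was called when Fisher's exact test on reads for inclusion and for skipping, adjusted over all tested events by the Benjamini-Hochberg method, gave at most 0.05 and the deposited level differed by at least 0.1. Of the 26 events 23 had the 20 distinguishing reads per library that the test required. Of these, 2 were called, 1 higher in TKO (Clk4) and 1 lower (Luc7l), against 4.57% of all 7695 tested events. By the adjusted p alone 8 of the 23 events (34.8%) differed, 7 with a larger share of inclusion reads in TKO and 1 with a smaller one, against 8.94% of all tested events. The events of the 10 genes were read more deeply than most: their median number of distinguishing reads was 379 in TKO and 381.5 in WT, against 100 and 96 over all events, and the part of this depth in the count was not tested. The 8 events belong to 5 genes, and those that share an exon end share reads.

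Srsf2 encodes SC35, an SR protein long used as a marker of nuclear speckles. Its 104-nucleotide exon (chromosome 11, 116851648 to 116851751, minus strand), whose length is not a multiple of 3, had 335 inclusion and 2857 skipping reads in TKO, against 126 and 3488 in WT. Inclusion reads were thus 10.5% (95% exact binomial interval 9.45 to 11.6) of the distinguishing reads in TKO and 3.49% (2.91 to 4.14) in WT. The deposited level was 0.07 in TKO and 0.02 in WT, a difference of 0.05 (Fisher's exact test, adjusted p = 1.96e-28). The intervals cover counting error only, here and below. In the knock-downs the exon was almost always skipped: 13 inclusion and 2060 skipping reads in the TKO triple KD, 4 and 1300 in the WT triple KD, and 8 and 2526, 8 and 2362, and 0 and 1928 after HP1alpha, HP1beta and HP1gamma siRNA. The deposited level was 0 in all 5. The count of 0 in the HP1gamma KD allows a share of up to 0.156%.

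Srsf9 encodes one of the smallest SR proteins. An exon of this gene was listed with 2 starts and a shared end (chromosome 5, 115331450 or 115331461 to 115331539, plus strand), as 90 and 79 nucleotides, of which 90 is a multiple of 3. Both forms had the same 70 inclusion and 549 skipping reads in TKO and the same 3 and 735 in WT, so the forms are 1 observation in these libraries. The level was 0.06 in TKO and 0 in WT (Fisher's exact test, adjusted p = 4.66e-19), and inclusion reads were 11.3% (8.92 to 14.1) in TKO against 0.407% (0.0839 to 1.18) in WT. In the 5 knock-downs both forms stood at 0 to 0.01, close to WT and below TKO. The 90-nucleotide form had 13 inclusion reads of 631 distinguishing reads in the TKO triple KD, against 4 of 518 in the WT triple KD.

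Srsf6, another SR protein gene, had an exon with 1 start and 2 ends (chromosome 2, 162932815 to 162932979 or 162933082, plus strand). The 165-nucleotide form, a multiple of 3, had 286 inclusion and 1427 skipping reads in TKO, against 273 and 2108 in WT. The 268-nucleotide form had 707 inclusion reads in TKO and 744 in WT, beside the same skipping reads. Levels were 0.05 in TKO against 0.04 in WT for the short form, and 0.11 against 0.08 for the long form (Fisher's exact test, adjusted p = 6.40e-05 and 3.05e-06). Inclusion therefore took a larger share of the reads in TKO for both forms, by a difference of level of at most 0.03. The long form stood at 0.08 in the TKO triple KD, 0.09 in the WT triple KD and 0.10, 0.10 and 0.08 after HP1alpha, HP1beta and HP1gamma siRNA. The short form stood at 0.02 to 0.03 in the knock-downs. For the long form the reads moved more than the level: inclusion took 39.2% (34.0 to 44.5) of the distinguishing reads in the WT triple KD and 42.3%, 41.5% and 37.8% after HP1alpha, HP1beta and HP1gamma siRNA, against 26.1% (24.5 to 27.7) in WT. In TKO cells it took 36.6% (32.0 to 41.4) in the triple KD and 33.1% (31.1 to 35.2) without it.

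Clk4 encodes a dual-specificity kinase of SR proteins and had the most events of the 10 genes, 7 on 5 exons. Its 91-nucleotide exon (chromosome 11, 51273078 to 51273168, plus strand; not a multiple of 3) had 366 inclusion and 96 skipping reads in TKO, against 141 and 83 in WT. The level was 0.70 (deposited interval 0.66 to 0.75, of a level that is not stated) in TKO and 0.49 (0.43 to 0.55) in WT. The difference of 0.21 (Fisher's exact test, adjusted p = 0.000226) ranked 184th of 7695 among differences in that direction. In the knock-downs the level was 0.49 in the TKO triple KD, 0.38 in the WT triple KD and 0.30, 0.34 and 0.36 after HP1alpha, HP1beta and HP1gamma siRNA. TKO thus had the highest level of the 7 libraries. Inclusion took 73.0% of the distinguishing reads in the TKO triple KD against 79.2% in TKO. In the WT triple KD the share was 66.7%, and after the single siRNAs in the same order 59.1%, 61.8% and 61.9%, against 62.9% in WT. None of the WT knock-downs differed from WT by the adjusted p at this exon, although their deposited levels were lower.

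Further upstream in Clk4, the 161-nucleotide exon (chromosome 11, 51267171 to 51267331; not a multiple of 3) had 728 inclusion and 0 skipping reads in TKO, against 505 and 14 in WT. Its level was 1.0 (0.99 to 1.0) in TKO and 0.95 (0.93 to 0.97) in WT (Fisher's exact test, adjusted p = 0.000129). The count of 0 allows a share of skipping reads of up to 0.412% in TKO. For both Clk4 exons TKO had the larger share of inclusion reads.

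Luc7l encodes a protein related to yeast Luc7, a U1 snRNP component that takes part in the choice of 5′ splice sites. Its 71-nucleotide exon (chromosome 17, 26253974 to 26254044, plus strand; not a multiple of 3), between flanks of 182 and 95 nucleotides, had 16 inclusion and 280 skipping reads in TKO, against 109 and 365 in WT. The level was 0.04 (0.02 to 0.06) in TKO and 0.17 (0.14 to 0.20) in WT (Fisher's exact test, adjusted p = 1.06e-09). Inclusion reads were 5.41% (3.12 to 8.63) in TKO and 23.0% (19.3 to 27.1) in WT. The deposited level of the knock-downs lay between those of TKO and WT, at 0.09 in the TKO triple KD and 0.13 in the WT triple KD. After HP1alpha, HP1beta and HP1gamma siRNA it was 0.10, 0.13 and 0.14. The share of inclusion reads did not always lie between those of TKO and WT. It was 16.8% in the TKO triple KD, 24.1% in the WT triple KD and 19.2%, 25.6% and 25.9% after the single siRNAs. When the level was recomputed from the reads and the exon length, the difference between TKO and WT was -0.09, short of the 0.1 that a call required. The same exon with the 458-nucleotide upstream flank stood at 0.46 in both TKO libraries, against 0.69 in the WT triple KD and 0.71 in WT, and at 0.59, 0.73 and 0.42 after HP1alpha, HP1beta and HP1gamma siRNA. That second event had 2 to 35 inclusion reads and no skipping read in any library, too few for the test.

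**Figure D2:**
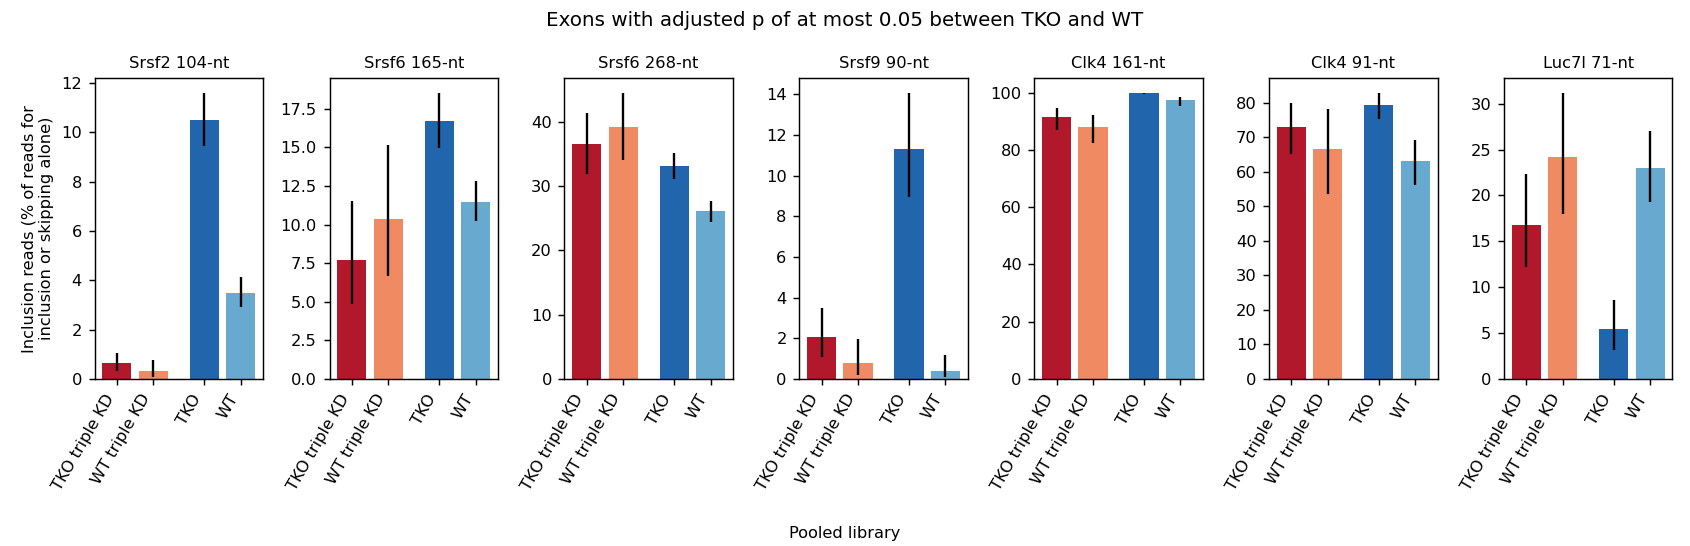
Inclusion reads as a percent of the reads that fit inclusion or skipping alone (vertical axes, each from 0 on its own scale), with 95% exact binomial intervals as black lines, for the exons past the adjusted p between TKO and WT; the 79-nucleotide Srsf9 form, with the same TKO and WT reads as the 90-nucleotide form, is left out. In untransfected cells TKO lies above WT in all panels but that of Luc7l, and in Srsf2 and Srsf9 both triple knock-down bars lie near 0.

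Other exons did not differ between TKO and WT by the adjusted p. The 306-nucleotide Tra2a exon stood at 0.74 (0.72 to 0.76) in TKO and 0.68 (0.66 to 0.70) in WT. These intervals lie apart, but the shares of inclusion reads were 88.4% (87.1 to 89.6) in TKO and 87.1% (85.7 to 88.5) in WT, and the exact test gave an adjusted p of 0.732. The 187-nucleotide Srsf1 exon had 0.71 (0.70 to 0.73) in TKO and 0.74 (0.73 to 0.75) in WT (same exact test, adjusted p = 0.139). For the 460-nucleotide Srsf7 exon the levels were 0.23 in TKO and 0.24 in WT, and for the 117-nucleotide Srsf11 exon with the 134-nucleotide flank 0.19 in TKO and 0.19 in WT.

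Event reads of the genes themselves were compared on the same RPM scale, with no test. The 7 SR genes had fewer such reads in TKO than in WT, with ratios of 0.617 (Srsf2) to 0.929 (Srsf1), while Tra2a, Luc7l and Clk4 had more, with ratios of 1.11, 1.20 and 1.39. Srsf2 had 933 RPM (916 to 949, 95% Poisson interval) in TKO and 1512 RPM (1491 to 1533) in WT. Srsf6 had 816 RPM (800 to 832) in TKO and 1142 RPM (1123 to 1160) in WT. In the triple knock-downs all 10 ratios of TKO to WT were below 1, from 0.622 (Srsf11) to 0.930 (Srsf2). Fewer cells with a transcript and less RNA per cell cannot be told apart in these bulk libraries.

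The same question was asked on the other platform, with the TKO triple KD set against the WT triple KD. None of 19 tested events was called, against 0.469% of 4473 events, with 1 of the 19 at an unadjusted p of at most 0.05. By the adjusted p alone 1 of the 19 differed, the 460-nucleotide Srsf7 exon, against 0.738% of all tested events. It had 418 inclusion and 491 skipping reads in the TKO triple KD, against 510 and 313 in the WT triple KD, with levels of 0.04 in the TKO triple KD and 0.07 in the WT triple KD and adjusted p = 1.18e-08 by Fisher's exact test. Between TKO and WT the reads of this exon had an adjusted p = 0.852 in the same exact test.

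TKO against WT and the triple knock-down pair share no library, so their signs could be compared. The log2 odds ratio of inclusion against skipping reads had the same sign in both for 11 of 19 events (57.9%), against 2449 of 4344 events (56.4%) over the series. Among the 8 events past the adjusted p between TKO and WT, 6 had the same sign (75%), against 305 of 488 (62.5%) over the series. The 6 were the exons of Srsf2 and Clk4, both forms of the Srsf9 exon, and the Luc7l exon, and the 2 that turned were both forms of the Srsf6 exon. None of these 8 events had an unadjusted p of at most 0.05 by Fisher's exact test between the triple knock-downs, so their signs there are weakly based. For the 79-nucleotide Srsf9 form the sign rests on 2 inclusion reads of 620 in the TKO triple KD against 0 of 514 in the WT triple KD. Several of the 8 events share reads, so they are fewer observations than events. The Clk4 91-nucleotide exon had 0.49 (0.41 to 0.58) in the TKO triple KD and 0.38 (0.28 to 0.50) in the WT triple KD, on 148 and 63 distinguishing reads, with overlapping intervals. For the Luc7l exon the levels were 0.09 (0.06 to 0.11) in the TKO triple KD and 0.13 (0.09 to 0.17) in the WT triple KD, also overlapping.

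**Figure D3:**
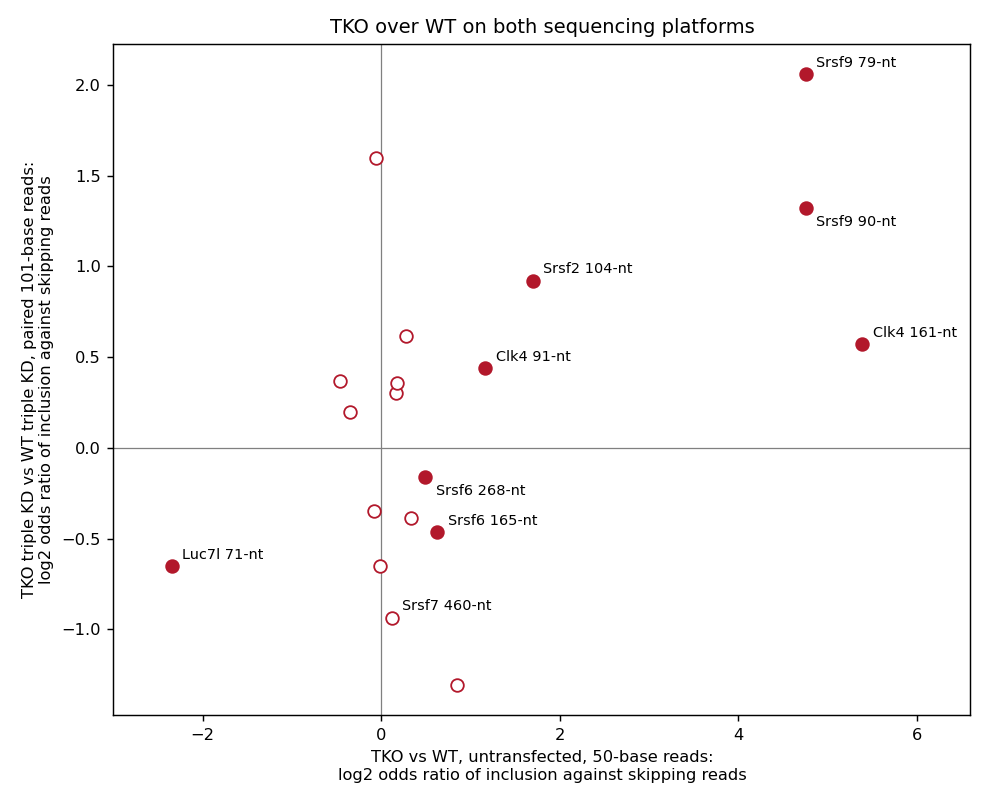
Log2 odds ratio of inclusion against skipping reads, TKO over WT, in untransfected cells (horizontal axis) and under the triple knock-down (vertical axis) for the 19 events tested in both. Filled points passed an adjusted p of 0.05 between TKO and WT; 6 of these 8 lie on the same side of 0 on both axes, and the Srsf6 forms do not.

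Knock-down libraries were next set against untransfected cells of the same line. The long Tra2a exon, the 117-nucleotide Srsf11 exon and the 161-nucleotide Clk4 exon were lower in all 5 knock-downs, and the 187-nucleotide Srsf1 exon was higher in all 5. Of 19 tested events 5 were called in each WT comparison, 1 higher and 4 lower, against 11.2% of all events for the WT triple KD, 11.8% for the HP1alpha KD, 11.8% for the HP1beta KD and 11.4% for the HP1gamma KD. In the TKO triple KD against TKO 4 of 19 were called, 1 higher and 3 lower, against 12.3% of all events. The 4 comparisons with WT share that library, so their calls are not independent of each other. By the adjusted p alone 7 of 19 differed in each WT comparison, 3 with a larger share of inclusion reads and 4 with a smaller one, against 17.1% of all events for the WT triple KD, 18.9% for the HP1alpha KD, 18.9% for the HP1beta KD and 18.1% for the HP1gamma KD. In the TKO triple KD it was 10 of 19, 2 with a larger share and 8 with a smaller one, against 19.3%. As between TKO and WT, events that share an exon end share reads, so they are not separate observations. Here too the events of the 10 genes were read more deeply than most. Their median number of distinguishing reads was 174 to 354 in the knock-downs, against 48 to 66 over all events. The part of this depth in the counts was not tested. Over all tested events the median difference was -0.03 or -0.04 in these 5 comparisons, so most exons of the series lay slightly lower in knock-down libraries.

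Tra2a encodes an SR-like protein that activates exon inclusion, and its 306-nucleotide exon (chromosome 6, 49252803 to 49253108, minus strand) lies between an upstream intron of 10729 and a downstream intron of 287 nucleotides. The exon length is a multiple of 3. The level was 0.13 (0.11 to 0.15) in the TKO triple KD, 0.10 (0.09 to 0.12) in the WT triple KD, 0.10 in the HP1alpha KD, 0.10 in the HP1beta KD and 0.08 in the HP1gamma KD, against 0.74 in TKO and 0.68 in WT. All 5 knock-down libraries were therefore low and both untransfected libraries high, with no overlap. The reads were 272 for inclusion and 260 for skipping in the TKO triple KD, 191 and 225 in the WT triple KD, 350 and 414 in the HP1alpha KD, 315 and 345 in the HP1beta KD and 226 and 317 in the HP1gamma KD. TKO had 2433 and 320 such reads and WT 1948 and 288. The inclusion share of the reads was 51.1% (46.8 to 55.5) in the TKO triple KD against 88.4% in TKO, and 45.9% (41.0 to 50.8) in the WT triple KD against 87.1% in WT, so reads and level moved the same way but the level by more. The differences of level were -0.61 in TKO cells and -0.58 for the triple KD in WT cells (Fisher's exact test, adjusted p = 1.11e-74 and 2.40e-67). With the level recomputed from reads and exon length they were -0.31 and -0.31, still called. The recomputed level also takes in read length, which differs between knock-down and untransfected libraries. The part of read length in recomputed differences was not tested, here and below. For the single knock-downs the deposited differences from WT were -0.58, -0.58 and -0.60 (HP1alpha, HP1beta and HP1gamma; adjusted p = 3.84e-106, 2.85e-88 and 2.09e-98, exact). The WT triple KD difference ranked 34th of 4591 events in that direction. The triple knock-down difference in TKO and that in WT were not distinguished (adjusted p = 1 in Zelen's exact test, which compares odds ratios). Reads that fit neither isoform made up 74.4% to 81.6% of those on this event in the knock-downs, against 64.4% in TKO and 59.9% in WT, and their part in the result was not tested.

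Srsf1 encodes SF2/ASF, one of the first SR proteins described. Its 187-nucleotide exon (chromosome 11, 88049412 to 88049598, plus strand; not a multiple of 3) stood at 0.98 in the TKO triple KD, 0.98 in the WT triple KD and 0.99, 0.99 and 0.97 after HP1alpha, HP1beta and HP1gamma siRNA, against 0.71 in TKO and 0.74 in WT. Skipping reads were few in every library: 3 of 894 in the TKO triple KD and 3 of 781 in the WT triple KD, against 224 of 5859 in TKO and 196 of 6461 in WT. Inclusion was thus near complete in the knock-downs and lower in both untransfected libraries, with adjusted p = 2.49e-09 for the TKO triple KD against TKO and 1.17e-05 for the WT triple KD against WT by Fisher's exact test. The share of inclusion reads differed far less than the level, at 99.6% (98.9 to 99.9) in the WT triple KD and 97.0% (96.5 to 97.4) in WT. Skipping reads after HP1alpha, HP1beta and HP1gamma siRNA were 2 of 1703, 2 of 1302 and 4 of 919 (adjusted p = 6.84e-16, 4.95e-12 and 1.94e-06 against WT, exact). With the level recomputed from reads and exon length the differences in the 5 knock-downs were 0.12 to 0.15, in place of 0.23 to 0.27, and the calls were kept. This was the only one of the 10 genes with a call in the higher direction against untransfected cells. On this event 83.5% to 86.4% of knock-down reads fitted neither isoform, against 40.2% in TKO and 40.2% in WT.

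Clk4 inclusion was lower in the knock-downs at the 161-nucleotide exon: 0.72 (0.63 to 0.80) in the TKO triple KD, 0.65 (0.56 to 0.74) in the WT triple KD and 0.77, 0.74 and 0.75 after HP1alpha, HP1beta and HP1gamma siRNA, against 1.0 in TKO and 0.95 in WT. Skipping reads numbered 19 of 225 in the TKO triple KD and 22 of 182 in the WT triple KD, against 0 of 728 in TKO and 14 of 519 in WT. Adjusted p was 2.24e-11 for the TKO triple KD against TKO and 8.31e-05 for the WT triple KD against WT by Fisher's exact test. In the single knock-downs it was 0.0319, 0.0192 and 0.0282 for HP1alpha, HP1beta and HP1gamma by the same exact test, and these calls, like that of the WT triple KD, were lost when each odds ratio was tested against the median of exons of like length. With the level recomputed from reads and exon length the single knock-down differences were -0.05, -0.07 and -0.07, short of a call, and those of the triple knock-downs -0.19 in TKO cells and -0.16 in WT cells, in place of -0.28 and -0.30. The other Clk4 exons gave no call against untransfected cells. The 59-nucleotide exon between flanks of 161 and 223 nucleotides stood at 0.26 in the TKO triple KD, 0.24 in the WT triple KD and 0.26, 0.19 and 0.27 after HP1alpha, HP1beta and HP1gamma siRNA, against 0.35 in TKO and 0.34 in WT. With the 67-nucleotide flank it stood at 0.38 in the TKO triple KD, 0.22 in the WT triple KD and 0.37, 0.25 and 0.37 after the single siRNAs in the same order, against 0.74 in TKO and 0.76 in WT. That contrast rests on 7 to 18 distinguishing reads in each knock-down, too few for the test. The 67-nucleotide exon with the 223-nucleotide flank stood at 0.03 in the TKO triple KD, 0.07 in the WT triple KD and 0.02, 0.05 and 0.05 after the single siRNAs, against 0.12 in TKO and 0.08 in WT. With the 59-nucleotide flank it had 0.13 in the TKO triple KD, 0.53 in the WT triple KD and 0.06, 0.45 and 0.07 after the single siRNAs, against 0.17 in TKO and 0.13 in WT. Knock-down levels of this last event were scattered, on 4 to 17 distinguishing reads. The 78-nucleotide exon, listed only in untransfected cells, had 0.88 in TKO and 0.81 in WT.

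Srsf11 encodes an SR-related protein also known as p54 and held 6 events on 4 exons, all on the minus strand of chromosome 3. Its 117-nucleotide exon (158023243 to 158023359; a multiple of 3), read with the 134-nucleotide flank, stood at 0.04 in the TKO triple KD, 0.06 in the WT triple KD and 0.06, 0.05 and 0.03 after HP1alpha, HP1beta and HP1gamma siRNA, against 0.19 in TKO and 0.19 in WT. Inclusion reads numbered 9 of 72 in the TKO triple KD and 13 of 70 in the WT triple KD, against 98 of 271 in TKO and 105 of 289 in WT. Inclusion was lower in each knock-down library than in both untransfected ones, with adjusted p = 0.000823 for the TKO triple KD against TKO and 0.029 for the WT triple KD against WT by Fisher's exact test. Tested against the median odds ratio of exons of like length, the call held for the HP1gamma KD alone of the 5, and with the level recomputed from reads and exon length the differences lay between -0.05 and -0.10 and all 5 calls were lost.

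The same exon read with the 109-nucleotide flank gave wide intervals in the knock-downs, with 0.65 (0.18 to 0.96) in the TKO triple KD and 0.52 (0.29 to 0.78) in the WT triple KD. It stood at 0.81, 0.63 and 0.43 after HP1alpha, HP1beta and HP1gamma siRNA, against 0.80 in TKO and 0.84 in WT. The neighbouring 109-nucleotide exon with the 117-nucleotide flank stood at 0.24 in the TKO triple KD, 0.48 in the WT triple KD and 0.34, 0.63 and 0.37 after the single siRNAs, against 0.12 in TKO and 0.14 in WT. Of the knock-down reads on both of these events 97.7% to 99.2% fitted neither isoform and at most 18 distinguished inclusion from skipping, so these levels are imprecise. The 64-nucleotide exon stood at 0.15 in the TKO triple KD, 0.17 in the WT triple KD and 0.05, 0.09 and 0.06 after the single siRNAs, against 0.09 in TKO and 0.04 in WT, on 4 to 18 distinguishing reads. The 2 remaining events, the 109-nucleotide exon with the 110-nucleotide flank and the 76-nucleotide exon, stayed between 0 and 0.07 in every library.

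Srsf7 encodes an SR protein with a zinc knuckle, and its 460-nucleotide exon (chromosome 17, 80204622 to 80205081, minus strand; not a multiple of 3) is the longest exon among the 10 genes. Its level was 0.04 (0.04 to 0.05) in the TKO triple KD, 0.07 (0.06 to 0.08) in the WT triple KD and 0.07, 0.06 and 0.06 after HP1alpha, HP1beta and HP1gamma siRNA, against 0.23 (0.21 to 0.24) in TKO and 0.24 (0.22 to 0.25) in WT. The reads went the other way. Inclusion and skipping reads numbered 510 and 313 in the WT triple KD, 1076 and 637 in the HP1alpha KD, 823 and 561 in the HP1beta KD and 666 and 569 in the HP1gamma KD, against 998 and 1314 in WT. Inclusion thus took 62.0% (58.6 to 65.3) of the reads in the WT triple KD and 43.2% (41.1 to 45.2) in WT, although the deposited level was lower in the knock-down. In TKO cells the share was 46.0% (42.7 to 49.3) in the triple KD and 45.1% (42.8 to 47.5) without it. The 4 lower calls against WT rest on the deposited level, and recomputing the level from reads and exon length turned all 4 round, so no direction is given for this exon. Among all called events of these 4 comparisons 24 to 31 likewise had reads opposite to the level.

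**Figure D4:**
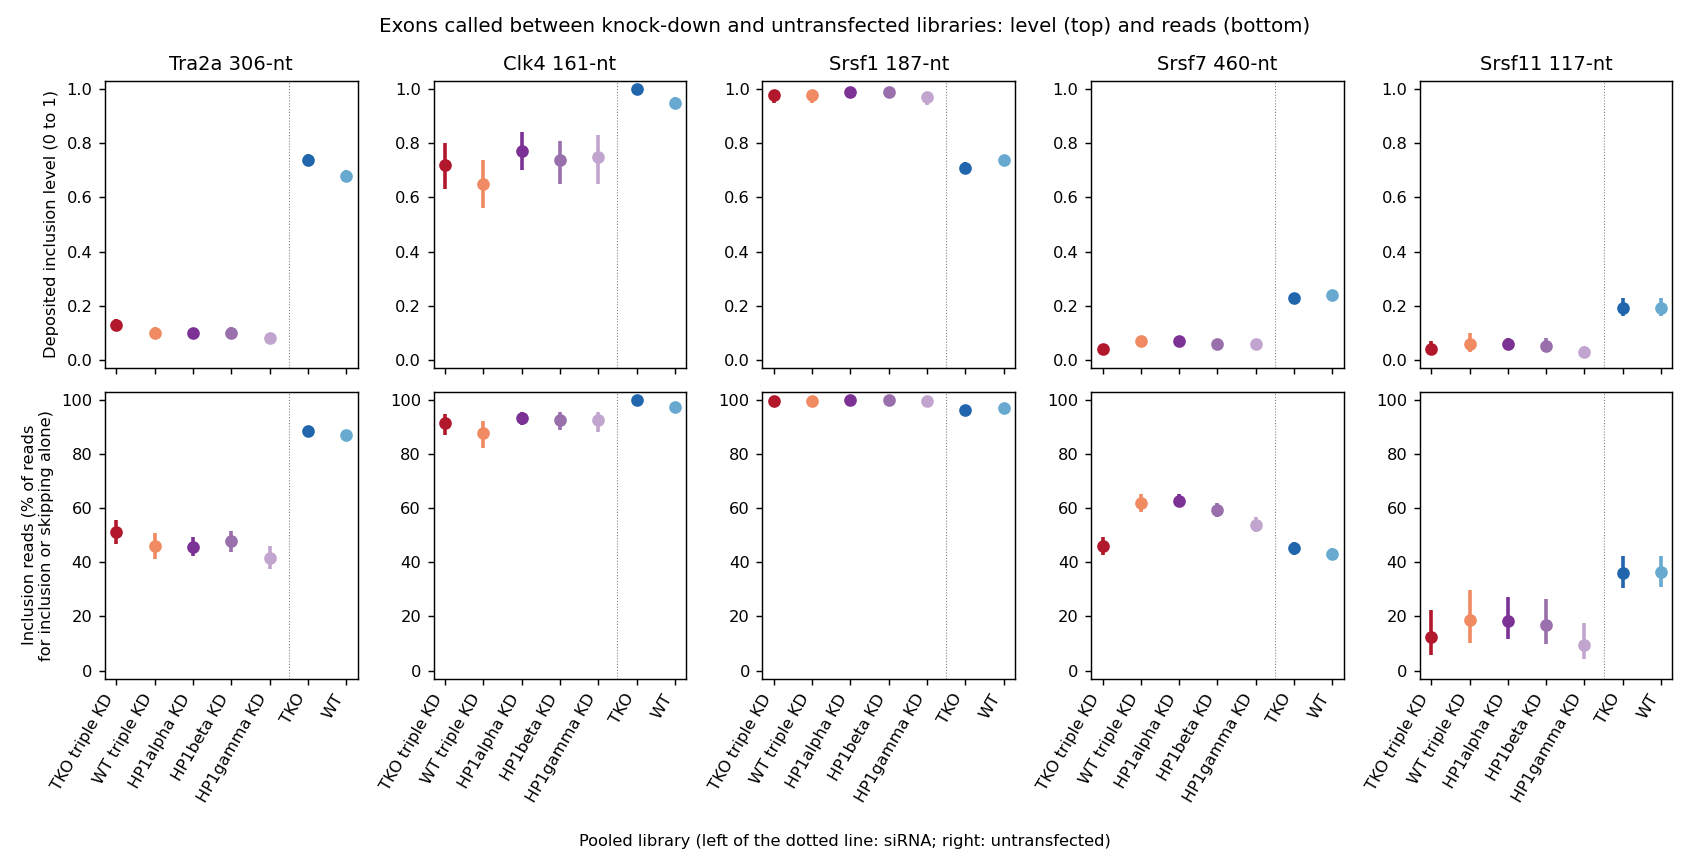
Deposited inclusion level with its interval (top row, 0 to 1) and inclusion reads as a percent of distinguishing reads with 95% exact binomial intervals (bottom row) for the 5 exons called against untransfected cells; the Srsf11 exon is the event with the 134-nucleotide flank. Level and reads lie on the same side in knock-downs for Tra2a, Srsf1, Clk4 and Srsf11, while for Srsf7 the level is lower in all knock-downs and the read share is 53.9% to 62.8% in the 4 WT knock-downs against 43.2% in WT, and 46.0% in the TKO triple KD against 45.1% in TKO.

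Exons of the other SR genes gave no call against untransfected cells. Srsf3 encodes the smallest classical SR protein, and its 456-nucleotide exon (chromosome 17, 29039454 to 29039909, plus strand; a multiple of 3) stood at 0.19 in the TKO triple KD, 0.25 in the WT triple KD and 0.28, 0.24 and 0.30 after HP1alpha, HP1beta and HP1gamma siRNA, against 0.16 in TKO and 0.14 in WT. No library had a read for skipping alone beside 303 to 674 inclusion reads, so these levels cannot come from the tested reads alone. For the same reason the exact test could not call this exon in any comparison. Its deposited level differed from WT by 0.11 in the WT triple KD and by 0.14, 0.10 and 0.16 after the single siRNAs. The deposited intervals lay apart in these comparisons with WT. The downstream exon of this event is 39 nucleotides long. The 36-nucleotide Srsf7 exon (80202169 to 80202204; a multiple of 3) stood at 0.88 in the TKO triple KD, 0.90 in the WT triple KD and 0.89, 0.90 and 0.88 after the single siRNAs, against 0.90 in TKO and 0.87 in WT, a narrow range. Srsf2 had less inclusion in the knock-downs by the adjusted p, for instance 4.16e-11 for the WT triple KD against WT by Fisher's exact test, with a level difference of -0.02. The 268-nucleotide Srsf6 form went the other way in the 4 WT knock-downs, with log2 odds ratios of inclusion of 0.79 to 1.05 and adjusted p = 1.17e-05 for the WT triple KD and 1.41e-15, 2.03e-12 and 1.70e-06 for HP1alpha, HP1beta and HP1gamma (exact). Its deposited level differed by 0 to 0.02. The level recomputed from reads and exon length differed by 0.11 for the HP1alpha KD and 0.11 for the HP1beta KD, past the 0.1 of a call. For the HP1gamma KD it differed by 0.09 and for the WT triple KD by 0.10, just short of a call. These recomputed values also depend on read length, which differs between the knock-downs and WT. In the TKO triple KD against TKO the 268-nucleotide form had an adjusted p of 0.480 in the same exact test. The 177-nucleotide Luc7l exon stayed at 0.98 to 0.99 with no skipping read in any library, and 91.9% to 97.1% of the reads on its event fitted neither isoform. With no skipping read, the exact test could not call that exon either.

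The knock-downs were then compared with each other, on 1 platform, to ask whether siRNA against all 3 HP1 genes or against a single one differed at these exons. No event was called in any of the 6 comparisons, and the levels lay close together. Among all tested events the shares called were 0.0214% for the WT triple KD against the HP1alpha KD, 0% against the HP1beta KD and 0.0217% against the HP1gamma KD. They were 0.0171% for the HP1alpha KD against the HP1beta KD, 0% for the HP1alpha KD against the HP1gamma KD and 0.019% for the HP1beta KD against the HP1gamma KD. Of the 19 events, 1, 0, 2, 0, 2 and 3 in this order had an unadjusted p of at most 0.05. Over the 4 WT knock-downs the range of level had a median of 0.02 for the 19 events and a largest value of 0.12, against 0.04 and 0.55 over 4522 events. The single knock-downs were thus as close to each other at the Tra2a exon (0.08 to 0.10) as to the WT triple KD, and a missed threshold does not show that they act alike.

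Whether the triple knock-down acted differently in TKO and WT cells was tested as a ratio of odds ratios. The lines were given different siRNA doses, and event reads of Cbx1, the HP1beta gene, stood at 0.641 in the TKO triple KD and 0.352 in the WT triple KD, relative to the single knock-downs of the other HP1 genes. For Cbx5 (HP1alpha) these ratios were 0.468 in the TKO triple KD and 0.522 in the WT triple KD, and for Cbx3 (HP1gamma) 0.691 in the TKO triple KD and 0.710 in the WT triple KD. The cell line and the extent of knock-down cannot be told apart in this comparison. Of 19 events 2 differed (adjusted p at most 0.05, Zelen's exact test), against 2.69% of 4344 events, with 6 of the 19 at an unadjusted p of at most 0.05. For the 460-nucleotide Srsf7 exon the log2 odds ratio of the knock-down was 0.05 in TKO cells and 1.10 in WT cells (adjusted p = 1.46e-07, exact). Its deposited level was lower in the triple KD of both lines: 0.04 against 0.23 for TKO and 0.07 against 0.24 for WT. For the 161-nucleotide Clk4 exon skipping reads were 19 of 225 in the TKO triple KD against 0 of 728 in TKO, and 22 of 182 in the WT triple KD against 14 of 519 in WT (adjusted p = 0.0314, exact). With no skipping read in TKO, the odds ratio of this exon has no finite value in TKO cells. By deposited level its triple knock-down differences were close, at -0.28 in TKO cells and -0.30 in WT cells. The next event, the 71-nucleotide Luc7l exon, reached an adjusted p of 0.0531 in that exact test. Its log2 odds ratio was 1.80 in TKO cells and 0.10 in WT cells.

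The other genes of the pathway were counted from a list of 32 further SR-family and SR-kinase genes, 21 of which had an event. Between TKO and WT 1 of 39 tested events (2.56%) was called, against 4.57% of all. It was an exon of Sfswap, a splicing regulator with an SR domain, at 0.56 in TKO against 0.41 in WT. In the TKO triple KD against TKO 0 of 37 were called higher and 10 lower, and in the WT triple KD against WT 1 of 35 was called higher and 9 lower. The called share was thus 27.0% of the list's events in the TKO triple KD and 28.6% in the WT triple KD, against 12.3% and 11.2% of all tested events. Several of the lower calls in each triple KD were exons of 1 gene, Rsrc2, so they were not spread evenly over the list. The part of read depth in these shares was not tested. The WT triple KD had lower levels at exons of Rsrc2 (0.05 against 0.43 in WT), Rnps1, a subunit that joins the exon junction complex (0.18 against 0.55 in WT), and Snrnp70, the U1 70K protein (0.09 against 0.36 in WT). For the 1360-nucleotide Snrnp70 exon the reads again went against the level. After HP1alpha, HP1beta and HP1gamma siRNA 9 of 39, 8 of 38 and 10 of 38 events were called lower than in WT, and 0, 0 and 1 higher. That made 23.1%, 21.1% and 28.9% of the list's events, against 11.8%, 11.8% and 11.4% of all. The median difference of the list was -0.08 in the TKO triple KD and -0.12 in the WT triple KD, against -0.04 over all tested events in each. No event of the list was called between the TKO and WT triple knock-downs, among 35 tested. Over the whole series too most calls were in the lower direction, with 568 of 636 in the TKO triple KD against TKO and 430 of 514 in the WT triple KD against WT.

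Of 14 nonsense-mediated decay genes 7 had an event. Between TKO and WT 2 of 8 tested events were called, both higher in TKO, against 4.57% of all tested events. Among them was a 63-nucleotide exon of Eif4a3, the helicase core of the exon junction complex, at 0.71 in TKO against 0.49 in WT (Fisher's exact test, adjusted p = 2.13e-20). In the WT triple KD the Eif4a3 exon was at 0.96 against 0.49 in WT, the 1 call among 6 tested events. It had 100 inclusion and 0 skipping reads in the WT triple KD, against 574 and 72 in WT. In the TKO triple KD none of 6 events was called against TKO. For the Eif4a3 exon TKO had 632 inclusion and 0 skipping reads, beside its level of 0.71. The exact test could therefore not find a larger share of inclusion reads in the TKO triple KD, and the lines cannot be compared on this call.

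The exons whose levels were most like the Tra2a exon over the 7 libraries were found among 6143 events listed in all of them. They were 2 overlapping exons of Trmt10b, a tRNA methyltransferase gene (mean absolute differences of level of 0.0286 and 0.0357), exons of Ctnnd1, which encodes p120 catenin (0.0329), and Nrf1, a transcription factor (0.04), and an exon in no named gene (0.0386). The Ctnnd1 exon stood at 0.10 in the TKO triple KD and 0.05 in the WT triple KD, against 0.69 in TKO and 0.67 in WT. Of these 5 exons 2, those of Ctnnd1 and Nrf1, were called between the WT triple KD and WT. The others were not called, which also holds for any event with too few distinguishing reads to be tested. Their levels were lower too in the WT triple KD, at 0.07 and 0.05 for Trmt10b and 0.04 for the exon in no named gene. In WT these stood at 0.72, 0.65 and 0.71. The likeness is a description of levels over 7 libraries that differ in platform.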

How the data were processed

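Messenger RNA of 14 samples was analysed; bisulfite and MNase samples were not analysed here. Alignment used Bowtie2 and TopHat2 on mm10, per the submitters' processing notes, which give no version. The settings are not stated there. Per the labels, both replicates of a group share 1 summary, so the authors pooled them. Per the file headers, the deposited summaries are MISO output: an inclusion level (a fraction, the posterior mean), the bounds of an interval of unstated level, and a count of reads for inclusion alone, skipping alone, both or neither. Every listed event had at least 100 reads.

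Gene spans came from the RefSeq annotation of GRCm38.p6. Each event with at least 20 distinguishing reads in both libraries went into Fisher's exact test (two-sided) on the reads, adjusted by Benjamini-Hochberg over all events, and called at adjusted p of at most 0.05 and a difference of level of at least 0.1. Zelen's exact test compared odds ratios. Odds ratios had 0.5 added to each count. Recomputed levels divided inclusion reads by exon length plus read length less 1, and skipping reads by read length less 1. Read length was 50 bases in untransfected and 101 in knock-down libraries, with no allowance for pairs. For the 165-nucleotide Srsf6 form the inclusion share was 7.95% in the HP1alpha KD against 11.5% in WT. The recomputed level of that form was 0.0315 in the HP1alpha KD against 0.0288 in WT. No test used a normal approximation. The code was tested on simulated data (Python 3.11.15, scipy 1.17.1). The 10 genes, the gene lists and the tests were chosen with earlier results of these data known. Exons were named where called or where the level lay between 0.1 and 0.9 in a library; Srsf2, the 165-nucleotide Srsf6 form, Srsf9, the 177-nucleotide Luc7l exon and the 76- and 109-nucleotide Srsf11 exons were added after their values were seen. Related lists named up to 4 called events per comparison. A called event of the decay list is not reported here.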

Additional observations from a re-analysis of the deposited data

Results flagged for a closer look

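At 2 exons the odds ratio of the triple knock-down in TKO cells was not the same as that in WT cells. This was tested by Zelen's exact test over 4 pooled libraries, adjusted over 4344 events. The 460-nucleotide Srsf7 exon had adjusted p = 1.46e-07 in this exact test: inclusion reads were 46.0% of the distinguishing reads in the TKO triple KD against 45.1% in TKO, and 62.0% in the WT triple KD against 43.2% in WT. The deposited level was lower in the triple KD of both lines: 0.04 against 0.23 for TKO and 0.07 against 0.24 for WT. The 161-nucleotide Clk4 exon had adjusted p = 0.0314 in this exact test, with 0 skipping reads in TKO. By deposited level the triple knock-down differences at that exon were close, at -0.28 in TKO cells and -0.30 in WT cells.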

How the results depend on the processing

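No paired analysis was possible because both replicates of a group sit in 1 pooled summary, and for the same reason no replicate could be left out. Of 182 alternatives to the 26 called differences 153 kept the call and direction, 25 lost the call and 4 turned round. The 4 were the 460-nucleotide Srsf7 exon with its level recomputed from reads, at 0.16 for the HP1alpha KD, 0.14 for the HP1beta KD, 0.10 for the HP1gamma KD and 0.16 for the WT triple KD against WT. Of 146 alternatives to the counts of called events 127 stayed within 1.5 times and 19 did not. For TKO against WT, with 2 called, a minimum difference of 0.05 gave 6, one of 0.2 gave 1 and the adjusted p alone, added after the data were seen, gave 8. With 5 called, the minimum of 0.2 gave 2 for the HP1alpha KD and 3 each for the HP1beta KD, HP1gamma KD and WT triple KD against WT. A null odds ratio set by exon length gave 3 each for the HP1alpha KD, HP1beta KD and WT triple KD. Intervals apart in place of the exact test gave 8 for the HP1alpha KD and 10 for the HP1beta KD, and the recomputed level gave 3 for the HP1gamma KD. For the TKO triple KD against TKO, with 4 called, the minimum of 0.05 gave 9 and the adjusted p alone 10. For the TKO triple KD against the WT triple KD the adjusted p alone gave 1, as for the HP1alpha KD against the HP1gamma KD, and intervals apart gave 1 for the WT triple KD against the HP1alpha KD, each with 0 called otherwise. An adjusted p of at most 0.01 left 1 of the 2 differences between TKO and WT in their response to the triple knock-down. The cause of these changes was not tested. The Clk4 and Srsf11 calls against untransfected cells were the ones most often lost, and the Tra2a and Srsf1 calls were kept under every alternative run.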
